A study of Mus musculus with 15 samples.

Results

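The autophagy genes described here are 38 genes of the core pathway, out of 50600 genes listed for each library. They were taken by symbol from a list chosen with earlier results of these data known. All 38 were found and all 38 passed the filter on low counts that left 19107 genes for testing. They were followed across 5 kinds of primary mouse epithelium, with 3 RNA-seq libraries a group: the cortical (cTEC) and medullary (mTEC) epithelium of the thymus, and that of skin, of colon and of lung. Every library came from sorted cells pooled from 5 male C57BL/6J mice of 8 weeks, with no treatment or engineered allele named for any group. The series set out to find what underlies the different levels of MHC class I on these epithelia.

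Macroautophagy wraps cytoplasm in a double membrane, the autophagosome, and delivers it to lysosomes. The ULK kinase complex starts the membrane, a PI3-kinase complex marks it with lipid, ATG9 and ATG2 feed it, and a pair of conjugation reactions attaches proteins of the ATG8 family (LC3 and GABARAP) to it. In thymic epithelium, which presents self peptides to developing T cells, autophagosomes are known to bring cytoplasmic proteins to the compartments where MHC class II is loaded. RNA levels do not measure that flux, which depends largely on protein and membrane turnover.

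KAPA RNA Stranded PolyA was the kit for cTEC, mTEC and skin, whereas KAPA RNA HyperPrep PolyA served for lung and colon, and the kit cannot be told apart from the tissue wherever the first 3 groups meet the last 2. Reads assigned to genes numbered 12946533 to 41978665 a library. Levels are given as CPM, the sense reads of a gene scaled to a common library size with TMM normalization and not divided by gene length. Epithelial markers were present in every group, and the marker genes of each epithelium summed highest in that tissue. The mTEC markers still summed to 651 to 1237 CPM in cTEC, against 2451 to 2858 in mTEC. Those of cTEC summed to 2523 to 8155 CPM in cTEC and 391 to 554 in mTEC. Markers of other cells were measured too: thymocyte markers summed to 89.5 to 120 CPM in cTEC and at most 53.4 in mTEC, myeloid markers to 1764 to 3298 CPM in lung and at most 191 elsewhere, and fibroblast markers to 3948, 1256 and 7572 CPM in skin replicates 1, 2 and 3. In lung only Lyz2 and Csf1r of the 6 myeloid markers were above all other groups, at 1187 to 2805 and 477 to 591 CPM, while Adgre1 was at most 1.95, Itgam at most 0.231 and Cd68 at most 8.27 CPM. Endothelial markers summed to 48.4 to 222 CPM in skin and 66.7 to 146 in lung, against at most 24.3 in the libraries of the other 3 groups. The T-cell genes Cd3g and Cd4 had no read in skin, and Ptcra none in colon. Skin keratin markers ran the other way in the 3 skin libraries, at 38417, 51027 and 26707 CPM. In skin replicate 1 a single gene, Gm42418, took 14.8% of gene reads, against 0.979% to 4.89% in all other libraries.

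A few promoters are shown because they carry the short motifs through which stress-responsive factors are known to act on autophagy and lysosome genes. RefSeq start-site windows on GRCm38.p6, each with 250 bases before the start and 50 after, were matched for 32 of the 38 genes, as 37 windows among 32851. The E-box core CACGTG, bound by TFEB and related factors, was found in the windows of Atg3, Atg5, Atg7 and Atg14, which is 12.5% of the matched genes against 8.09% of all genes with a window. Its longer form TCACGTGA, which contains it, was found in Atg3 alone (3.12% against 1.12%). TGACNNNGC, the core of the antioxidant response element, was found on either strand in Atg13, Map1lc3b and Ulk2 (9.38% against 14%). The 4 windows below lie at chr16:45158579-45158878 on the plus strand, chr10:44268089-44268388 on the plus strand, chr8:121590188-121590487 on the plus strand and chr11:61855043-61855342 on the minus strand. Capitals mark the motif matches, and each run reads 5′ to 3′ along the gene.
Atg3: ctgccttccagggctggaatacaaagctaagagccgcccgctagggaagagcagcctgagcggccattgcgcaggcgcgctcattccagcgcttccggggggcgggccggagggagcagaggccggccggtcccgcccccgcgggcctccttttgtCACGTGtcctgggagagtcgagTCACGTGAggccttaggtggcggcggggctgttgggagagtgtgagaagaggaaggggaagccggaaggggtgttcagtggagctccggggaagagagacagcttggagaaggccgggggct
Atg5: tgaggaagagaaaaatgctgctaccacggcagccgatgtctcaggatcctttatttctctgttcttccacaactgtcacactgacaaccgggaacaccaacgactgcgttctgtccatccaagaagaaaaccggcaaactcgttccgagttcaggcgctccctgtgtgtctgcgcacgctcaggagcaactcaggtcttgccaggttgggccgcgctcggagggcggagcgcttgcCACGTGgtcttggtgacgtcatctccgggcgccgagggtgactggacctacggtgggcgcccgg
Map1lc3b: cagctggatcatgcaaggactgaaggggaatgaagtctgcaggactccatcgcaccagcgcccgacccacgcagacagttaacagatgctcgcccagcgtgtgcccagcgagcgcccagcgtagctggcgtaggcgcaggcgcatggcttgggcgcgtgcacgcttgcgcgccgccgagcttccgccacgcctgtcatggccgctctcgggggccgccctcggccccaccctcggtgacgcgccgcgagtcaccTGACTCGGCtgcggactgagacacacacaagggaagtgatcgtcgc
Ulk2: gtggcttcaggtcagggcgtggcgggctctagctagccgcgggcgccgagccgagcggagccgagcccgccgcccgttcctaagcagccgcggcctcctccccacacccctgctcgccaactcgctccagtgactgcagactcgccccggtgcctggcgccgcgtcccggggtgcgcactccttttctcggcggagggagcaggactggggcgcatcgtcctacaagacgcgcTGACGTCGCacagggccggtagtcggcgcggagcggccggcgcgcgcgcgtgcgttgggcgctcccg
Their starts lay 44, 19, 39 and 19 bases from the nearest GENCODE M21 transcript start of the same gene. The Atg7 window lay 9066 bases from the nearest such start, so its match may not be at the promoter used by the counted gene and it is not shown. A match is a run of letters and not a measured site of binding.

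The autophagy genes were present in all 5 epithelia, and most differed between them by a few-fold at most. The highest group mean CPM was a median of 2.48 times the lowest (range 1.19 to 27.7), against a median of 4.98 over all genes tested. Of the 38 genes, 15 varied by less than 2-fold, 15 by 2-fold to 4-fold and 8 by more. In the edgeR quasi-likelihood F-test over the 5 groups, 33 of 38 (86.8%) passed an adjusted p under 0.05, where 90.6% of all genes tested did. Those that did not pass were Atg14, Ambra1, Wipi1, Atg16l1 and Gabarap, with adjusted p from 0.0772 to 0.458. Lung was the highest group for 15 genes (39.5%, against 23.5% of all genes tested) and colon for 10 (26.3% against 24.2%), while skin was the lowest for 15 (39.5% against 29.5%). In whole sorted populations such as these, fewer cells of a type and less RNA per cell cannot be told apart.

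**Figure D1:**
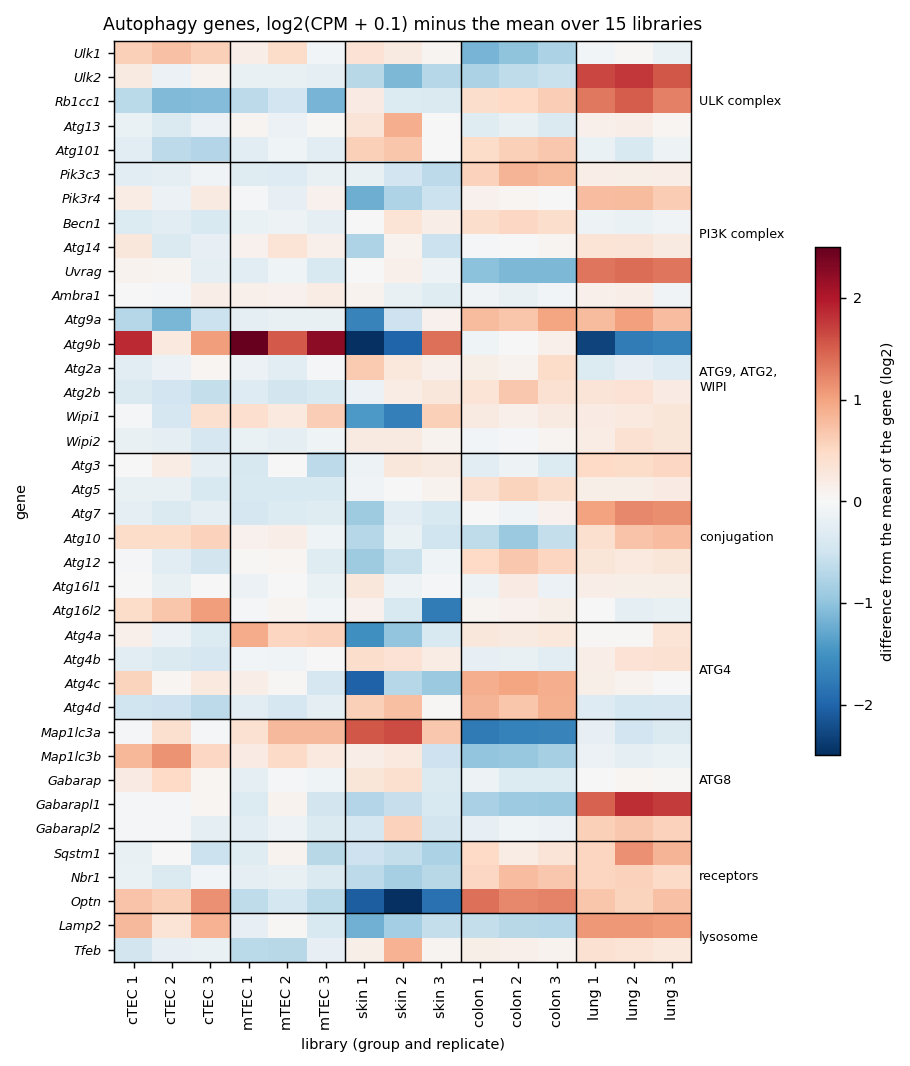
Heat map of the 38 genes (rows, by role) in the 15 libraries (columns), as log2(CPM + 0.1) minus the mean of the gene over the libraries, with red above and blue below that mean. Lung stands out in Ulk2, Rb1cc1, Uvrag, Atg7 and Gabarapl1, skin is low in Optn and high in Map1lc3a, and Atg9b is above its mean in the thymic libraries and in skin replicate 3.

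The ULK kinases showed different orders. Ulk1, the kinase that starts autophagosome formation, read 154, 168 and 154 CPM in cTEC, 114, 139 and 97 in mTEC, 131, 118 and 106 in skin, 45.3, 50.4 and 58.5 in colon and 97.1, 103 and 89.9 in lung. The cTEC libraries were all above those of the other groups and the colon libraries all below, and mTEC overlapped both skin and lung. Ulk2, its close relative, read 44.4, 33.9 and 39.9 CPM in cTEC, 33.3, 33 and 32 in mTEC, 23.4, 17.2 and 23.1 in skin, 21.7, 24.3 and 25.6 in colon and 120.1, 128 and 111 in lung. Lung libraries were far above the rest, and skin and colon overlapped at the bottom. Rb1cc1, which encodes the scaffold FIP200, read 39.6, 29.5 and 29.7 CPM in cTEC, 40.4, 45.3 and 28.2 in mTEC, 73, 49.6 and 49.3 in skin, 86.3, 89.2 and 97.1 in colon and 158, 181 and 152 in lung. Its lung libraries were above all colon libraries, colon was above skin, and the thymic groups overlapped each other below skin. The scaffold partners Atg13 and Atg101 stayed between 18.3 and 87.6 CPM in group means and were highest in skin and colon respectively.

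In the PI3-kinase complex Uvrag had the widest range. Uvrag, the subunit tied to later steps of the autophagosome and to endosomes, read 52.5, 52 and 42.2 CPM in cTEC, 41.2, 46 and 38.3 in mTEC, 49.98, 54.1 and 45.6 in skin, 24.3, 22.9 and 22.7 in colon and 125, 131 and 126 in lung. The lung libraries lay above and the colon libraries below all others, and cTEC, mTEC and skin overlapped. Atg14, the subunit that takes the complex to the forming autophagosome instead, had group means of only 15.8 to 24.9 CPM. Pik3c3, the lipid kinase itself, and Becn1, its core regulator, were highest in colon at 67.5 ± 6.31 and 157 ± 4.84 CPM (mean ± SD, n = 3). Pik3r4, the kinase's regulatory subunit, was highest in lung at 63.9 ± 3.75 CPM, and Ambra1, a regulator of Becn1, had the smallest range of the 38 apart from Atg16l1, from 54.4 to 65.7 CPM.

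Among the membrane suppliers Atg9b had the widest range of all members at the lowest level. This paralog of the lipid scramblase Atg9a read 3.95, 1.23 and 2.18 CPM in cTEC, 8.45, 3.13 and 5.12 in mTEC, 0, 0.177 and 2.79 in skin, 0.94, 1.0 and 1.11 in colon and 0.123, 0.231 and 0.248 in lung. Skin replicate 3 lay within the thymic range while the other skin libraries held almost no reads. Skin replicate 3 also stood apart for Wipi1, which encodes a reader of the lipid mark, with 15.2, 12.6 and 61.9 CPM in the 3 skin libraries against 30.7 to 54.3 in cTEC. Atg9a, by contrast, had group means of 11.2 to 35.3 CPM. A gene annotated on the same strand, Gm29253, overlaps Atg9a by 4287 bases, and the RSEM expected count of Atg9a was 1.86 to 4.58 times its sense count by group, so its counts are uncertain. The lipid transfer genes Atg2a and Atg2b and the reader Wipi2 varied by at most 1.94-fold between group means.

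The 7 conjugation genes varied by 1.19-fold to 3.07-fold between group means. Atg7, the E1-like enzyme of both reactions, read 29.2, 27 and 29.4 CPM in cTEC, 25.7, 27.3 and 28.2 in mTEC, 18.6, 28.7 and 26.7 in skin, 34.7, 32.5 and 37.4 in colon and 69.8, 79.8 and 77.5 in lung. Lung was clear of the rest, and skin overlapped both thymic groups. Reads on the opposite strand of Atg7 came to 30.7% to 128% of its sense reads by group, and only the sense reads were used. Atg5, which is joined to Atg12 and widely deleted to block autophagy, read 27.8, 27.7 and 24.4 CPM in cTEC, 24.3, 24.5 and 24.4 in mTEC, 29.7, 32.2 and 33.9 in skin, 41.6, 46.4 and 43.3 in colon and 34.9, 35.2 and 36.7 in lung. Neither thymic group reached the skin, lung or colon range. Atg16l1, the partner of the Atg12-Atg5 conjugate, was the steadiest of all 38 genes at 34.3 to 40.7 CPM. Its paralog Atg16l2 was highest in cTEC at 23.9 ± 5.1 CPM, and its skin libraries spread over 15.2, 10.8 and 4.13 CPM. The E2-like enzymes Atg3 and Atg10 were highest in lung at 83.4 ± 1.7 and 15.5 ± 2.15 CPM, and Atg12 was highest in colon at 63.2 ± 4.22.

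The ATG4 proteases, which trim ATG8 proteins before conjugation and free them afterwards, differed most in Atg4c. It read 13.6, 9.47 and 10.8 CPM in cTEC, 10.3, 9.38 and 6.81 in mTEC, 2.16, 5.57 and 4.79 in skin, 17.2, 18.2 and 17.3 in colon and 10.2, 9.72 and 9.07 in lung. All skin libraries were below, and all colon libraries above, those of the other groups. Per length, in the TPM values of RSEM, which divide by transcript length, Atg4b was the leading ATG4 in every group, with 64.5% ± 3.34 of the summed TPM of the 4 proteases in skin and 42.8% ± 0.999 in colon. Atg4a held 18% ± 2.54 in mTEC and 4.67% ± 1.5 in skin.

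**Figure D2:**
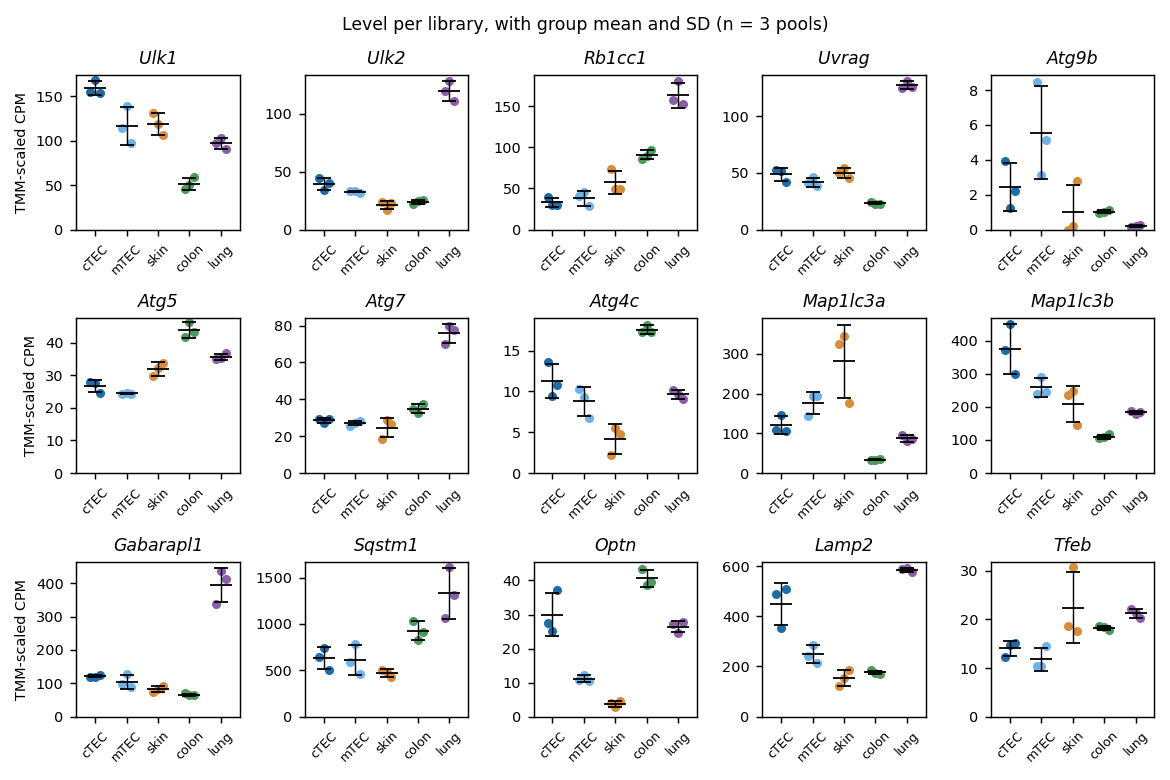
TMM-scaled CPM (y axis, linear from 0) of 15 genes in the 5 groups, with a point per library and the mean and SD of 3 pools. Skin is lowest for Optn and Atg4c, lung highest for Ulk2, Uvrag, Rb1cc1, Atg7 and Gabarapl1, and cTEC highest for Ulk1 and Map1lc3b.

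The LC3 genes of the ATG8 family ran in different directions. Map1lc3b, at chr8:121590361-121598760 (GRCm38) and the source of the usual autophagosome marker LC3B, read 371, 451 and 299.6 CPM in cTEC, 240.03, 291 and 246 in mTEC, 235, 247 and 145 in skin, 105, 108 and 117 in colon and 188, 179 and 185 in lung. In CPM the 3 cTEC libraries were the highest and mTEC overlapped skin, whereas in TPM mTEC overlapped cTEC and lay above all skin libraries. Map1lc3a, at chr2:155276297-155278073, read 108, 147 and 106 CPM in cTEC, 144, 193 and 193 in mTEC, 324, 344 and 176 in skin, 32.2, 34 and 34.7 in colon and 96, 79.7 and 85.4 in lung. Skin replicates 1 and 2 were highest, skin replicate 3 lay within the mTEC range, mTEC overlapped cTEC, and colon was lowest. A longer gene on the same strand, Gm20388, overlaps Map1lc3b by 8400 bases, and the expected count of Map1lc3b was 1.34 to 1.55 times its sense count by group.

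Gabarapl1 was highest in lung. It read 119.6, 119 and 126 CPM in cTEC, 96.6, 129 and 88.8 in mTEC, 73.2, 81.7 and 92.8 in skin, 69.5, 64.6 and 63.8 in colon and 339, 436 and 411 in lung. The lung libraries were well above all others and colon was below all others. Per length, Gabarap was the largest share of the family's summed TPM in all 5 groups by mean, from 30.2% ± 0.908 in lung to 47.3% ± 2.18 in colon. Map1lc3a made up 13.9% ± 0.651 of the family in cTEC, 24.9% ± 2.9 in mTEC and 30.6% ± 3.84 in skin, and Gabarapl1 made up 22.4% ± 2.2 in lung. The summed TPM of the 5 genes was highest in cTEC at 1552 ± 71.4 and lowest in colon at 615 ± 28.2. Counts of Gabarapl2 at single places in the genome were low beside RSEM's estimates, which came to 3.29 to 4.70 times the counts by group, so its CPM are uncertain.

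**Figure D3:**
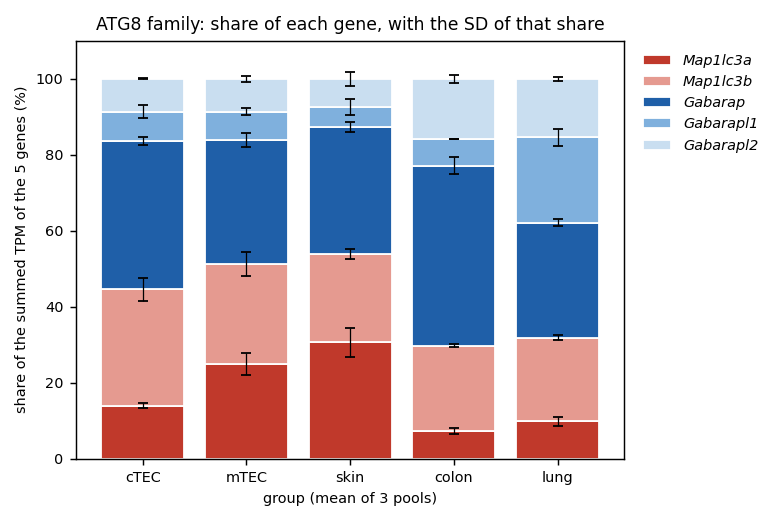
Stacked bars of the mean share (percent) of each ATG8 gene in the summed TPM of the 5 genes, by group (mean of 3 pools), with bars for the SD of each share. Gabarap is 47.3% ± 2.18 in colon, Map1lc3a 30.6% ± 3.84 in skin and Gabarapl1 22.4% ± 2.2 in lung.

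Of the cargo receptors, which link ubiquitin-tagged cargo to ATG8 proteins, Sqstm1 (p62) had the highest TPM of the 38 genes averaged over the groups and Optn the widest range. Sqstm1 read 644, 739 and 502 CPM in cTEC, 592, 778 and 455 in mTEC, 508, 484 and 426 in skin, 1031, 831 and 917 in colon and 1066, 1613 and 1314 in lung. In CPM all lung and colon libraries were above all thymic and skin libraries, which is also the split of the kits. The thymic and skin groups overlapped. In TPM, colon read 642 to 765, cTEC 607 to 753 and mTEC 512 to 839, so colon overlapped both thymic groups. Skin, at 361 to 445 TPM, was below them all, and lung, at 866 to 1413, was above. Optn (optineurin), at chr2:5020642-5064051, read 27.4, 25.2 and 37.1 CPM in cTEC, 10.8, 12.3 and 10.4 in mTEC, 3.95, 2.74 and 4.55 in skin, 43.5, 38.6 and 39.6 in colon and 27.1, 24.5 and 27.7 in lung. Colon was highest, cTEC and lung overlapped, mTEC was below them and skin was lowest. Nbr1, a receptor related to p62, ranged from 81.1 ± 5.22 CPM in skin to 212 ± 18.4 in colon.

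Lamp2, at chrX:38401357-38456454, encodes an abundant protein of the lysosomal membrane needed for autophagosome clearance. It read 487, 352 and 509 CPM in cTEC, 241, 287 and 215 in mTEC, 121, 155 and 184 in skin, 184, 173 and 171 in colon and 589.5, 592 and 577 in lung. Lung was highest, cTEC next and mTEC below it, and colon and skin overlapped. Tfeb, the transcription factor that drives lysosome and autophagy genes, read 12.3, 14.7 and 15.1 CPM in cTEC, 10.5, 10.4 and 14.6 in mTEC, 18.7, 30.8 and 17.7 in skin, 18.7, 18.5 and 17.9 in colon and 22.2, 21.4 and 20.3 in lung. Every thymic library was below every library of the other 3 groups.

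Setting cTEC and mTEC together against skin keeps to libraries of the same kit. Optineurin, the ATG4 proteases Atg4c and Atg4a, and Lamp2 were higher in thymic cells, and Atg4d, Atg4b and Map1lc3a were lower. By the edgeR quasi-likelihood test, 11 of the 38 genes were higher and 12 lower at an adjusted p under 0.05, with a median log2 fold change of 0.18. Over all 19107 genes 61.2% were called, 35.6% higher and 25.6% lower, with a median of 0.21, so the members' share of 60.5% was near the background. A change of at least 2-fold was called for 4 members, all higher, or 10.5%, against 43.5% of all genes in either direction and 28.4% higher.

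Called members came from every role. Optn rose by 2.27 ± 0.19 (log2 fold change ± SE, adjusted p = 1.91e-07) and Lamp2 by 1.12 ± 0.16 (adjusted p = 3.56e-05). All 4 ATG4 genes passed, 2 in each direction. Atg4c was higher by 1.25 ± 0.27 (adjusted p = 0.00111) and Atg4a by 1.18 ± 0.25 (adjusted p = 9.48e-04). The RSEM expected count of Atg4a was 1.36 to 1.88 times its sense count by group, so its counts are uncertain. Atg4d was lower, at -0.92 ± 0.14 (adjusted p = 5.01e-05), and so was Atg4b, at -0.53 ± 0.10 (adjusted p = 2.58e-04). Opposite-strand reads of Atg4d, over which Kri1 lies on the other strand, came to 38% to 139% of its sense reads by group. The other called higher genes were Ulk2, Pik3r4, Atg10, Atg16l2, Map1lc3b, Gabarapl1 and Nbr1, between 0.45 and 0.88 on the log2 scale. Without skin replicate 1 the call of Gabarapl1 was lost (adjusted p = 0.0557). The other called lower genes were Rb1cc1, Atg13, Atg101, Becn1, Atg2a, Atg2b, Wipi2, Atg5, Map1lc3a and Tfeb, between -0.95 and -0.32, and of these Becn1, Atg2a, Wipi2 and Atg5 turned positive when limma was run on log2(TPM + 1). Leaving out skin replicate 2 ended the call of Atg13 (adjusted p = 0.054) and brought Tfeb from -0.80 to -0.49, and leaving out skin replicate 3 ended that of Atg5 (adjusted p = 0.0668). Fibroblast markers summed to 1256 to 7572 CPM in skin and 118 to 502 CPM in the thymic libraries, and the part of fibroblasts or endothelium in these differences was not tested.

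For Map1lc3b the thymic groups were also set against skin one by one. Across both thymic groups it was 0.57 ± 0.17 above skin (adjusted p = 0.00906). Against skin, cTEC was higher by 0.84 ± 0.19 (adjusted p = 0.00189), and mTEC had 0.31 ± 0.19 (adjusted p = 0.183, 95% interval -0.07 to 0.68). The difference between mTEC and cTEC itself was -0.53 ± 0.19 and just missed the threshold (adjusted p = 0.0556), although in CPM no mTEC library reached the lowest cTEC library. In TPM, Map1lc3b read 405 to 533 in cTEC, 329 to 457 in mTEC and 240 to 304 in skin. On that scale mTEC overlapped cTEC and lay above all skin libraries. Map1lc3a was lower than in skin by both, at -1.23 ± 0.22 in cTEC (adjusted p = 2.86e-04) and -0.67 ± 0.22 in mTEC (adjusted p = 0.0165). The mTEC value lost its call without mTEC replicate 1 (adjusted p = 0.0998), skin replicate 1 (0.0615) or skin replicate 2 (0.0831) and was 0.0731 with limma on log2(TPM + 1). Optn was higher than in skin by 2.99 ± 0.21 in cTEC (adjusted p = 4.82e-08) and 1.56 ± 0.21 in mTEC (adjusted p = 1.98e-05), and Lamp2 by 1.55 ± 0.18 (adjusted p = 6.18e-06) and 0.69 ± 0.18 (adjusted p = 0.00418).

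The split between higher and lower genes differed between the edgeR fit on sense counts and limma on TPM, which change the counting, the scaling, the filter and the test at once. With limma on log2(TPM + 1) the median of all genes in thymic cells against skin went from 0.21 to 0.51, and the calls over all genes from 6811 higher and 4884 lower to 9536 and 2631. The members went from 11 higher and 12 lower to 23 higher and 3 lower there. Optn, Atg4c, Atg4a and Lamp2 were called higher on both, and Atg4d, Atg4b and Tfeb lower on both. The other 9 lower calls were lost with TPM, among them those of Map1lc3a (adjusted p = 0.0617), Rb1cc1 (0.469) and Atg2b (0.817).

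**Figure D4:**
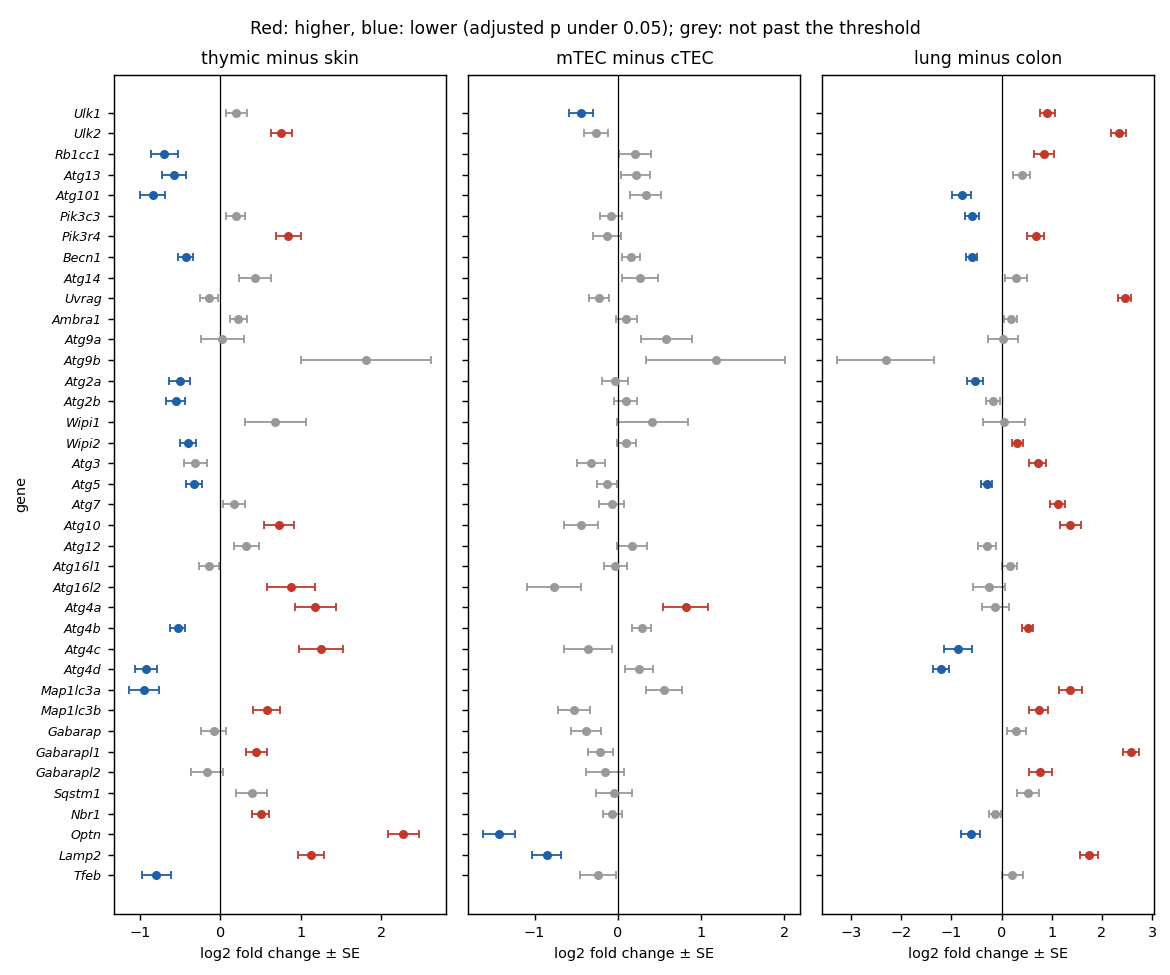
Log2 fold changes ± SE of the 38 genes (rows) in the edgeR fit for thymic minus skin, mTEC minus cTEC and lung minus colon, in red where higher and blue where lower at an adjusted p under 0.05 and grey otherwise. The middle panel holds 4 called genes, against 23 in each of the others.

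The ratio of 2 paralogs within a library does not depend on scaling between libraries. Of 8 paralog pairs, 4 differed between the 6 thymic and the 3 skin libraries with no overlap (exact two-sided permutation test, p = 0.0238, the smallest these groups allow, and 0.0476 adjusted over the 8 pairs). That test took the 6 thymic libraries as independent. Same-numbered cTEC and mTEC libraries deviated together, so its p may be too small. The log2 ratio of Map1lc3a to Map1lc3b reads was -1.78, -1.62 and -1.50 in cTEC, -0.74, -0.59 and -0.35 in mTEC and 0.46, 0.48 and 0.28 in skin. Colon had -1.71, -1.67 and -1.75 and lung -0.97, -1.17 and -1.11, so the skin libraries had the highest ratios. They were above 0 in sense counts but turned negative in RSEM expected counts, at -0.10, -0.19 and -0.43, where they remained above those of all other libraries (mTEC -1.25, -1.18 and -0.83). The thymic mean minus the skin mean of this log2 ratio was -1.50. The ratio of Atg4a to Atg4b was higher in thymic libraries by 1.78, that of Atg16l2 to Atg16l1 by 1.17 and that of Atg9b to Atg9a by 3.27. The counts of Atg4a are uncertain, and the last ratio rests on few Atg9b reads and on the uncertain counts of Atg9a. Pairs that did not pass were Ulk1 to Ulk2 (adjusted exact p = 0.0762), Wipi1 to Wipi2 (0.0952), Gabarapl1 to Gabarapl2 (0.136) and Atg2b to Atg2a (0.857). With RSEM expected counts no pair passed, since 3 pairs at the smallest p give an adjusted p of 0.0635, and the Map1lc3a to Map1lc3b difference was then -1.36. In TPM that difference was -0.996 and did not pass (adjusted exact p = 0.0952).

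**Figure D5:**
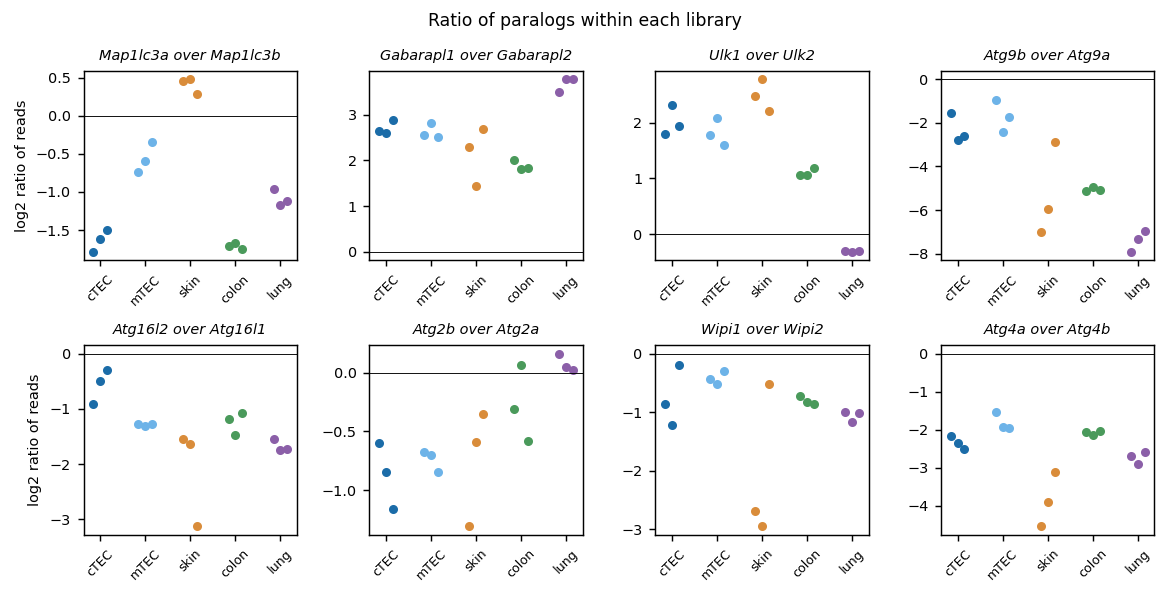
Log2 ratio of sense reads of 8 paralog pairs (y axis) in each library, by group. The ratio of Map1lc3a to Map1lc3b is highest in the 3 skin libraries, above 0 in these sense counts and below 0 in RSEM expected counts, and that of Ulk1 to Ulk2 is below 0 in the 3 lung libraries only.

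Medullary and cortical thymic epithelium differed in few of these genes. Optn and Lamp2 were lower in mTEC than in cTEC, with smaller differences in Ulk1 and Atg4a. With edgeR, 1 of 38 genes was higher and 3 were lower, or 10.5%, where 24.7% of all genes tested were called, 15.2% higher and 9.45% lower. At least 2-fold, 1 gene was called, Optn, where 17.2% of all genes were, with 4.4% lower. The median log2 fold change was -0.06 for the members and 0.07 for all genes. Optn differed by -1.42 ± 0.19 (adjusted p = 2.00e-04) and Lamp2 by -0.86 ± 0.18 (adjusted p = 0.00379), and both kept their calls in every setting and with each library left out. Ulk1, the remaining called gene and named after its value was seen, had -0.45 ± 0.15 (adjusted p = 0.0378). That call was lost without any 1 of cTEC replicates 1, 2 and 3, mTEC replicates 1 and 3 and lung replicates 1, 2 and 3, with adjusted p from 0.0502 to 0.133. Atg4a had 0.81 ± 0.27 (adjusted p = 0.039) and lost its call without any 1 of cTEC replicates 2 and 3 and all mTEC, colon and lung replicates, with adjusted p from 0.0515 to 0.161. Both calls were also lost with no filter on low counts (adjusted p = 0.134 for Ulk1 and 0.0564 for Atg4a) and with limma on TPM (0.106 and 0.0544). Atg4a, whose counts are uncertain, also lost its call with RSEM expected counts (edgeR adjusted p = 0.0654). Map1lc3a was 0.56 ± 0.22 and did not pass (adjusted p = 0.0763). Blocking on the replicate number over the 2 thymic groups kept these 4 calls (Atg4a adjusted p = 0.0449, Ulk1 0.0254). Thymocyte markers summed to 89.5 to 120 CPM in cTEC and 31.4 to 53.4 in mTEC. Markers of mTEC summed to 651 to 1237 CPM in cTEC and 2451 to 2858 in mTEC. The part of either in these differences was not tested.

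Lung and colon share the other kit. Gabarapl1, Uvrag and Ulk2 were each more than 4-fold higher in lung, and Lamp2, Map1lc3a, Atg10 and Atg7 more than 2-fold. Of the 38 genes 15 were higher and 8 lower (60.5%), with 58.6% of all genes called, 30.4% higher and 28.3% lower. At least 2-fold, 7 were higher and 1 lower, against 24% higher and 44.7% in either direction over all genes. The medians were 0.25 for the members and 0.00 for all genes. Gabarapl1 differed by 2.58 ± 0.16 (edgeR adjusted p = 5.56e-09), Uvrag by 2.45 ± 0.13 (adjusted p = 1.13e-09) and Ulk2 by 2.33 ± 0.15 (adjusted p = 7.67e-09). Lamp2 followed with 1.73 ± 0.18 (adjusted p = 1.25e-06). Map1lc3a had 1.37 ± 0.22 (adjusted p = 8.76e-05), Atg10 1.37 ± 0.21 (adjusted p = 6.16e-05) and Atg7 1.12 ± 0.15 (adjusted p = 1.55e-05). In the other direction Atg4d had -1.21 ± 0.16 (adjusted p = 1.60e-05) and Becn1 -0.60 ± 0.11 (adjusted p = 2.22e-04). Of the smaller differences, Atg4c lost its call without lung replicate 3 (adjusted p = 0.0587) and Atg2a without colon replicate 3 (adjusted p = 0.0566), while Atg5 and Wipi2 each lost theirs without any of several libraries. With limma on TPM the calls of Becn1 (-0.23, adjusted p = 0.386), Pik3c3, Atg2a, Atg5, Atg4c and Optn were lost. By role, 4 of 5 ATG8 genes, 3 of 5 ULK complex genes and 3 of 7 conjugation genes were higher in lung, and no ATG8 gene was lower. Those ATG8 genes include Gabarapl2, whose CPM are uncertain. The 8 lower genes were Atg101 of the ULK complex, Atg5 of conjugation, Becn1, Pik3c3, Atg2a, Atg4c, Atg4d and Optn. Myeloid markers summed to 1764 to 3298 CPM in lung against at most 9.94 in colon, mainly through Lyz2 and Csf1r. At low levels Mpeg1 (8.73 to 17.5 against 0.233 to 0.981 CPM), Cd68 and Adgre1 were also higher in lung than in colon. Only Itgam was lower in lung, at most 0.231 CPM against at most 1.34 in colon. The part of these markers in the differences was not tested.

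Thymic epithelium against all 3 extrathymic groups mixes tissue with kit. Map1lc3b, Ulk1 and the scarce Atg9b were higher in the thymic groups, and Rb1cc1 and Atg2b lower. With edgeR, 8 of 38 genes were higher and 18 lower (68.4%), where 64.2% of all genes were called, 37.3% higher and 26.9% lower. At least 2-fold, Atg9b was higher and Rb1cc1 lower, where 39.9% of all genes were called, 28.1% higher. The medians were -0.22 for the members and 0.14 for all genes, and with TPM the latter moved to 0.35 and the members to 16 higher and 3 lower. Calls over all genes moved with them, from 7122 higher and 5146 lower to 9326 and 3381. Map1lc3b differed by 0.94 ± 0.12 (edgeR adjusted p = 8.23e-06), Ulk1 by 0.70 ± 0.09 (adjusted p = 1.17e-05) and Atg9b by 2.61 ± 0.56 (adjusted p = 8.59e-04). Rb1cc1 differed by -1.42 ± 0.13 (adjusted p = 2.61e-07) and Atg2b by -0.73 ± 0.09 (adjusted p = 6.16e-06). Within the kit of the thymic libraries the same genes against skin had 0.20 for Ulk1 (adjusted p = 0.19), 1.81 for Atg9b (adjusted p = 0.0663), -0.70 for Rb1cc1 (adjusted p = 0.0022) and -0.55 for Atg2b (adjusted p = 0.00104). In the edgeR fit Ulk1 and Atg9b thus did not pass within the kit. In TPM, however, Ulk1 read 69.4 to 99.3 in cTEC, 54.7 to 68.5 in mTEC and 35.6 to 47.3 in skin. Every thymic library was thus above every skin library for Ulk1 on that scale, while Atg9b overlapped between cTEC and skin. Rb1cc1 and Atg2b passed within the kit in the edgeR fit but not with limma on TPM (-0.14 and -0.0511, adjusted p = 0.469 and 0.817). Against the extrathymic groups Atg2b also lost its call with TPM (-0.25, adjusted p = 0.105), and these comparisons share the thymic and skin libraries.

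A list of 72 further genes of the pathway showed where the neighbours of the 38 moved. Against skin, 21 were higher and 20 lower in thymic cells, or 56.9%, near the 61.2% called over all genes (35.6% higher and 25.6% lower). Among selective receptors Fundc1 and Bnip3l, both receptors for mitochondria, were higher (1.19 ± 0.13 and 1.28 ± 0.19, edgeR adjusted p = 3.16e-06 and 3.61e-05), and Tollip, an adaptor for ubiquitinated proteins, was lower at -2.55 ± 0.16 (adjusted p = 1.32e-08). In the nutrient-sensing list Rragd, a Rag GTPase that recruits mTORC1 to lysosomes, had a mean of 65.4 CPM in the thymic libraries and 0.554 in skin (6.63 ± 0.52, adjusted p = 9.34e-08). Of that list, 3 genes were higher and 8 lower out of 20. In the lysosome list, with 6 higher and 4 lower of 16, the cholesterol exporter Npc1 was lower at -1.01 ± 0.10 (adjusted p = 6.98e-07). The fusion list, of SNAREs and HOPS tethering subunits, had 2 higher and 1 lower of 13.

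Between mTEC and cTEC, 4 of the 72 were higher and 19 lower, or 31.9%, against 24.7% of all genes (15.2% higher and 9.45% lower). The receptor Calcoco1 was lower in mTEC at -1.44 ± 0.24 (edgeR adjusted p = 8.74e-04), as was the late-endosome GTPase gene Rab7 at -0.52 ± 0.14 (adjusted p = 0.0181). Nrbf2, a subunit of the autophagy PI3-kinase complex, was higher at 1.25 ± 0.29 (adjusted p = 0.00789), and so was Ddit4, an inhibitor of mTORC1, at 1.28 ± 0.30 (adjusted p = 0.00725). Between lung and colon, 33 were higher and 15 lower, or 66.7%, against 58.6% of all genes (30.4% higher and 28.3% lower). Wdr45, a WIPI relative, was higher in lung by 3.47 ± 0.16 (adjusted p = 4.53e-10), the lysosomal SNARE gene Vamp8 by 2.79 ± 0.18 (adjusted p = 6.69e-09) and Calcoco1 by 3.67 ± 0.26 (adjusted p = 2.10e-08).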

How the data were processed

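Sorted cells were lysed in TriZol before RNeasy clean-up, per the labels' protocols. Per the submitters' processing notes, bcl2fastq 2.20, STAR 2.5.1b, RSEM 1.2.28 and the genome GRCm38 were used; of the annotation, no release is named in the labels or headers. The deposited read counts per gene come in 1 unstranded and 2 stranded columns. The column whose total was 8.43 to 19.3 times that of its opposite was used as sense. The authors also deposited RSEM expected counts, rounded here for tests, and TPM. Reads outside genes, unmapped or at several places made up 24.2% to 46.9% and were left out. Skin replicate 1 held both the 46.9%, against at most 36.1% elsewhere, and the ratio of 8.43, against at least 12.97 elsewhere. Symbols and coordinates came from GENCODE M21, which matched 50376 of 50600 identifiers, and promoter windows from RefSeq.

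Counts were scaled with TMM and filtered by filterByExpr by group in edgeR 4.0.16, which left 19107 genes. One model with 5 group terms was fitted to 15 libraries and tested by quasi-likelihood F-tests with Benjamini-Hochberg adjustment over these genes. Biological variation between replicates was 28.1% (common BCV). Standard errors were derived as |log2 fold change| over the square root of F. Paralog ratios used log2 of reads plus 0.5. Alternatives were DESeq2 1.42.0 and limma 3.58.1 on log2(TPM + 1), other scalings, filters, columns, a replicate block and each library left out. Only the main edgeR fit was checked on simulated counts, for thymic cells against skin.

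The 38 members and all lists were chosen with earlier results of these data known. Members were named with a test where called with a log2 change of at least 1, or by the 2 smallest p a direction, and in every sample for the 8 with the widest range and 7 more. Replicate numbers paired only cTEC and mTEC (correlations of same-numbered deviations 0.290, 0.278 and 0.156, against at most 0.114 in other groups), as found in the data and not from the labels. Pools within a group are separate samples, but the labels do not say whether cTEC and mTEC share pools. A pool averages its 5 mice, and reads without molecular identifiers are not independent molecules. One named pathway gene is not reported here.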

Additional observations from a re-analysis of the deposited data

How the results depend on the processing

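Of the called members, 12 of 23 against skin, 16 of 23 in lung against colon, 2 of 4 in mTEC against cTEC and 9 of 26 against the extrathymic groups kept their calls in every setting, and 17, 19, 2 and 19 did so in every setting but limma on log2(TPM + 1). With that TPM scale, thymic cells against skin gave 23 members higher and 3 lower and 2631 genes lower, lung against colon 2 members lower, thymic against extrathymic 16 members higher and 3 lower and 3381 genes lower, and mTEC against cTEC 2 members higher. On the same scale the log2 differences of thymic cells against skin turned to Becn1 0.23, Uvrag 0.30, Atg2a 0.13, Wipi2 0.0748, Atg5 0.28, Gabarap 0.52 and Gabarapl2 0.67, and that of Map1lc3a in mTEC against skin to 0.0731. Against the extrathymic groups they turned to Atg13 0.27, Pik3c3 0.0486, Becn1 0.11, Uvrag 0.20, Atg2a 0.33, Atg3 0.0781, Atg12 0.18, Sqstm1 0.00396 and Nbr1 0.15. The cause was not tested. The median of all genes went from 0.21 to 0.51 against skin and from 0.14 to 0.35 against the extrathymic groups with TPM, and to 0.87 and 0.48 with no filter on low counts. With RSEM expected counts Atg9a against skin turned from 0.02 to -0.78 (adjusted p = 2.26e-05). Members higher in mTEC than cTEC numbered 2 with DESeq2 size factors, 0 with RSEM expected counts, 0 with a replicate block over all 5 groups and 4 with DESeq2, and members lower numbered 5 with only the 2 groups fitted. No paralog ratio was called with expected counts or TPM (0 and 0), or with 1 library left out (0 to 0), where too few arrangements remain. Leaving out 1 library moved the mTEC and cTEC counts to 0 to 3 members higher, 2 to 6 members lower, 1513 to 4092 genes higher and 895 to 2462 genes lower. A block on replicate numbers over all 5 groups left Atg4a at an adjusted p of 0.0559, and the block over the 2 thymic groups, chosen after seeing the data, changed no call of a member in mTEC against cTEC. Depth limits Atg9b, which had no read in skin replicate 1.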
